A study of Homo sapiens with 11 samples.

Results

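Transcript usage was compared between SK-MEL-103 cells treated with either of 2 senescence-inducing drugs and cells given the solvent. Usage is the share of a transcript in the summed TPM of its gene, where TPM is a level corrected for transcript length and sequencing depth. Of 61566 genes with a transcript in the annotation, 23958 had at least 2 transcripts and so could change usage. Of these, 8544 genes with 30121 transcripts were tested, because their level was at least 5 TPM on average and at least 2 TPM in each group, and at least 2 of their transcripts held 5% or more of the gene on average.

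SK-MEL-103 is an established human melanoma line. Cells received DMSO, 0.25 µM etoposide or 0.5 µM tozasertib for 6 days, with medium and drugs renewed on day 3. Etoposide poisons topoisomerase II and leaves DNA breaks, and tozasertib blocks the Aurora kinases that run mitosis. Poly(A)-selected RNA was sequenced from 4 DMSO, 4 etoposide and 3 tozasertib samples, so that 7 treated samples stood against 4 controls. Whether the replicates came from separate cultures is not said, and p-values therefore reflect the scatter among these libraries alone, which could be technical.

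A human gene can produce several transcripts through alternative start sites, alternative splicing and alternative 3′ ends. Such transcripts may encode proteins with other domains or other addresses in the cell, or no protein at all. A sum over the gene does not show an exchange among them. Senescent cells, which have stopped dividing for good, are known to alter the levels of their splicing factors.

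Depth ran from 27882689 to 56534763 estimated reads per sample, and reads were 72 bases long from 1 end. A read that fits several transcripts was divided among them by the quantification program, so each share carries an uncertainty beyond the spread between samples, which cannot be read from these tables. As a check of the cell type, the melanocyte lineage factor SOX10 averaged 251 TPM with DMSO, 179 with etoposide and 216 with tozasertib. MLANA was at 0 in all 11 samples and TYR and DCT were under 0.2 TPM, so these markers of pigment cells were absent, and PMEL averaged 0.297, 0.35 and 3.47 TPM. The summed level of 6 fibroblast markers was 30.3 to 36.9 TPM in the controls, and 163 to 194 (etoposide) or 164 to 175 TPM (tozasertib) in treated samples, most of it LUM. COL1A1 averaged 1.44, 13.8 and 7.44 TPM in the 3 groups, while COL1A2, COL3A1, DCN and PDGFRA stayed under 0.6 TPM. Of the keratinocyte, immune and endothelial lists, KRT10 and CD68 alone exceeded 5 TPM on average. The part of other cells in the usage values was not tested, and in bulk samples fewer cells of a kind and less RNA per cell cannot be told apart.

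Both drugs together shifted the share of 1989 of 30121 transcripts, with 1023 higher and 966 lower (limma on the log2 ratio of a transcript to the rest of its gene, adjusted p under 0.05). These were 3.4% and 3.21% of the transcripts tested, or 6.6% in either direction. They lay in 1201 genes, 14.1% of those tested. Alone, etoposide shifted 971 transcripts (3.22%) and tozasertib 798 (2.65%), each against the same DMSO samples. Without DMSO replicate 4 the pooled counts were 3092 transcripts and 1845 genes, and without DMSO replicate 2 they were 1021 and 668. These counts thus moved by more than 1.5 times with either control. DMSO replicate 1 stood apart in another way, with a slope of 0.039 of log2 share on log2 transcript length against −0.016 to 0.0082 in the other 10 samples, and the part of this slope in the calls was tested only as a covariate, which left 811 transcripts in 531 genes.

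An isoform switch was defined as a transcript that gained at least 10 percentage points together with another of the same gene that lost at least 10, both past the test. There were 184 such genes, 2.15% of those tested, and 170 of them were protein-coding. The smaller of both changes had a median of 14.4 points and ran from 10.04 to 53.6. The shares of riser and faller did not overlap between DMSO and treated samples in 140 of the 184, which the choice of switches on these same samples favours. Of all tested transcripts, counted singly and not in pairs, 7.83% had shares that did not overlap. With single replicates left out, the number of switches ran from 105 (without DMSO replicate 2) to 385 (without DMSO replicate 4). The count of isoform switches, both drugs against DMSO, also moved by over 1.5 times without DMSO replicate 1 (114), DMSO replicate 3 (108) or tozasertib replicate 1 (118). With the length slope as a covariate there were 81 switches, and with edgeR's splicing test on the estimated counts 16, of which 77 and 13 were among the 184. Both partners were called under every alternative run in MACROH2A1, UNG, DDAH1, ADAMTS2, SNX14, COL5A1, HMGB1 and DUXAP9. Among other genes named below, edgeR's splicing test did not call 1 partner in TPM1, CLCN3, ABI1, MCM7, HMGA1, NQO1, EIF6 and RNF24. The same held for DNAJC6, MAP3K2, LPIN1, TMLHE, LRRC57, HNRNPDL and MX2. That test called neither partner in MYL6, DCLRE1A, FBXO5, MED7, PDGFC, DENND5B, NCAPD2 and DYRK1A. Nor did it call a partner in ANKHD1-EIF4EBP3, QTRT1, ZNF579, AKIRIN2, ANKRD10, SEMA3C or RNASEH1-DT. In 26 switches a partner was under 0.5% in 1 sample and above 10% in another of the same group, as was the case for 20.4% of all tested transcripts.

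Each drug alone had the direction of the pooled comparison in all 184 switches, which the pooled choice favours. Riser and faller both passed the test in 101 switches with etoposide and in 74 with tozasertib. Both drugs alone called both partners in 52, and neither drug did so in 61. The number called in each drug alone was 14 without tozasertib replicate 2 and 109 without DMSO replicate 4. Tozasertib and etoposide differed from each other in 2 transcripts of 30121 (0.00664%). In that comparison 1490 of the 30121 had an unadjusted p under 0.05 (limma), which is no more than chance alone gives at this threshold. That number is therefore no sign of further differences between the drugs. Both drugs against DMSO, a comparison with more samples, gave 7663 at the same threshold.

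Most switching genes also changed in total level. A share can then fall without a lower amount of the transcript, or rise without a higher one. Gene sums were called in 6039 of the 8544 genes tested (70.7%, edgeR quasi-likelihood test). Among the switches 152 (82.6%) had a called sum, with 72 higher and 80 lower. The sum stayed within 0.3 on the log2 scale in 53 switches (28.8%), against 46.7% of all genes tested. Of these 53, 22 still had a called sum, and 15 were switches called in each drug alone. When 1 replicate was left out, the number with a sum within 0.3 ran from 30 to 155, and the number also called in each drug alone from 2 (without tozasertib replicate 1) to 39 (without DMSO replicate 4).

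**Figure D1:**
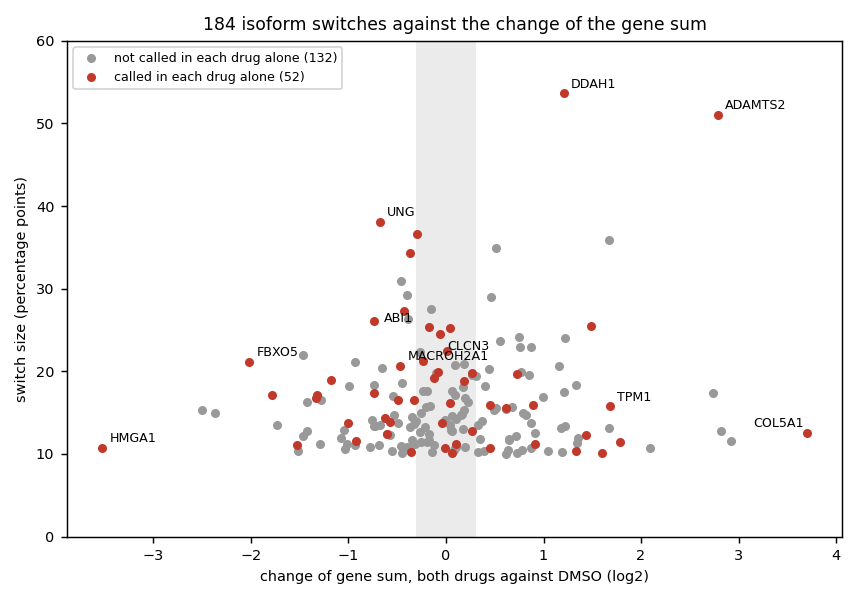
Each point is 1 of the 184 switching genes, with the log2 change of its gene sum (both drugs against DMSO) on the x axis and the switch size in percentage points on the y axis. Red points were called in each drug alone (52), grey points were not (132), and the shaded band holds sums within 0.3. Sizes reach 53.6 points for DDAH1, and gene sums reach from −3.53 for HMGA1 to 3.70 for COL5A1.

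MACROH2A1, which encodes the histone variant macroH2A1, exchanged its mutually exclusive exons under both drugs. MacroH2A1 replaces H2A in silent chromatin and in the heterochromatin of senescent cells. Its macroH2A1.1 form binds ADP-ribose through the macro domain, and its macroH2A1.2 form does not. The exons that set the forms apart lie on the minus strand at chr5:135350823-135350913 (91 bases) and chr5:135352946-135353045 (100 bases) of GRCh38. They are printed 5′ to 3′ because the exchange rests on them, with the exon in capitals and 12 flanking coding bases in lower case.
MACROH2A1-202: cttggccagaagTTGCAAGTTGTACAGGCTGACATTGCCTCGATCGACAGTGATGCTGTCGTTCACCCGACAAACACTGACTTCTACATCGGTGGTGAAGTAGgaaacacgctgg
MACROH2A1-217: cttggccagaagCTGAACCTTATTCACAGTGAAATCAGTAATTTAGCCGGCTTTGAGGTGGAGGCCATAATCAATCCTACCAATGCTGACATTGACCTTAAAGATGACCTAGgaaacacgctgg

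MACROH2A1-202, which carries the 91-base exon, held 18.7%, 15%, 14.7% and 17.2% of the gene with DMSO. It held 35.7%, 37.7%, 38.4% and 37.1% with etoposide and 35.7%, 38.2% and 36.7% with tozasertib. MACROH2A1-217, with the 100-base exon, went the other way, with 51.9% ± 3.3 (SD, n = 4) with DMSO, 26.3% ± 1.7 (n = 4) with etoposide and 24.7% ± 3.4 (n = 3) with tozasertib. No treated sample overlapped a control in either transcript. The rise of 20.7 points had an adjusted p of 5.4e-05 and the fall of 26.3 points one of 0.00015 (limma, BH over all transcripts). Summed over all models, the 91-base exon was in 19.9% ± 1.8 of the TPM of models that span it with DMSO, 53.7% ± 0.9 with etoposide and 53.4% ± 2.0 with tozasertib. The 100-base exon went from 74.9% ± 4.2 to 40.3% ± 1.6 and 38.3% ± 3.1. The gene sum fell by 0.47 (log2, SE 0.047), from 197 ± 12 to 164 ± 4.2 and 153 ± 6.9 TPM. The share of the main start site was 74.6%, 72.1% and 72.1% (adjusted p = 0.38). A separate start, that of MACROH2A1-201, fell from 18.2% to 8.71% with etoposide and 7.97% with tozasertib (adjusted p = 0.0019).

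UNG, uracil-DNA glycosylase, shifted from the transcript of its nuclear form to that of its mitochondrial form. The enzyme removes uracil from DNA and starts base excision repair. UNG-201 starts upstream and encodes the nuclear form, UNG2, whereas UNG-202 starts 521 bases downstream and encodes the mitochondrial form, UNG1. They share the catalytic part, and their first codons differ: codons 1 to 44 of UNG-201 at chr12:109097680-109097811 and codons 1 to 35 of UNG-202 at chr12:109098327-109098431, both on the plus strand. In capitals are the coding bases that only the named transcript has.
UNG-201: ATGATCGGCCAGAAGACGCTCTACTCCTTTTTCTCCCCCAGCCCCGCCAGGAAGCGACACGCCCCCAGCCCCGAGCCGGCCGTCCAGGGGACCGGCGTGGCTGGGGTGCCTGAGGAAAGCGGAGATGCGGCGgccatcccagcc
UNG-202: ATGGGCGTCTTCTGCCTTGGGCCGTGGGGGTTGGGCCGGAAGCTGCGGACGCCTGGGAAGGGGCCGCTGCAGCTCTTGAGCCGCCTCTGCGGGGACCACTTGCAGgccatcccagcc

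UNG-202 held 27.8%, 15.3%, 25.9% and 26.5% of the gene with DMSO, 60.6%, 53.5%, 61.1% and 55.3% with etoposide, and 63.0%, 68.4% and 72.1% with tozasertib. UNG-201 took 70.4% ± 2.9 with DMSO, 37.5% ± 2.4 with etoposide and 23.9% ± 2.7 with tozasertib. The groups did not overlap, and adjusted p was 0.0004 for the riser and 2.7e-05 for the faller. Meanwhile the gene sum fell by 0.68 (SE 0.054). With transcripts summed by start site the shares were 29.4%, 61.4% and 76.1% for the downstream start (adjusted p = 4.4e-05). DUT, the dUTPase that keeps uracil out of DNA, also has a nuclear and a mitochondrial form and was chosen for mention after its values were seen. Its nuclear transcript DUT-202 fell from 21.4% to 9.15% with etoposide and 7.87% with tozasertib (adjusted p = 0.00013), and its mitochondrial DUT-201 rose from 6.79% to 13.6% and 15.9% (adjusted p = 0.0043). Other transcripts held most of DUT in each group, and its gene sum changed by −1.24 (log2). These values therefore do not show a shift between the forms for the gene as a whole.

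**Figure D2:**
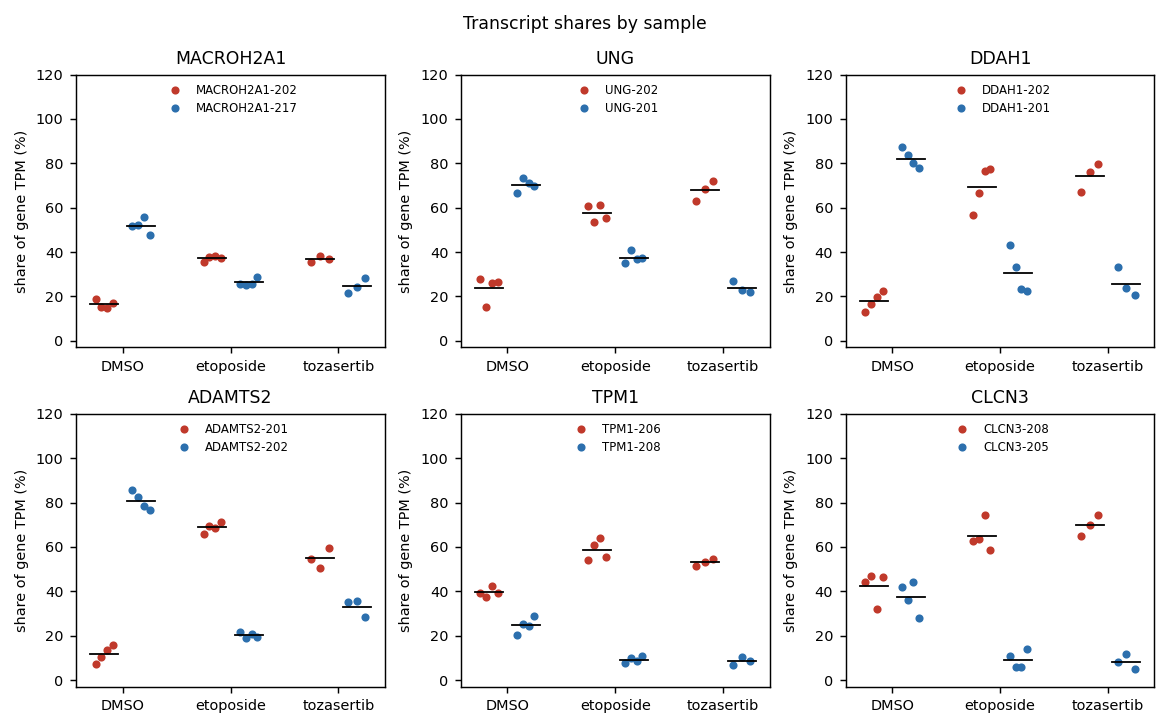
Share of the gene's TPM (y axis, %) held by the riser (red) and the faller (blue) in each sample of DMSO, etoposide and tozasertib (x axis). Each point is 1 sample and each line a group mean. In all 6 genes the treated samples of riser and faller lie apart from the 4 DMSO samples, as for MACROH2A1-202 with 14.7% to 18.7% against 35.7% to 38.4%.

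Several of the largest switches exchanged the first exon. DDAH1, which degrades the nitric oxide synthase inhibitor asymmetric dimethylarginine, showed the largest switch. DDAH1-202 starts 113204 bases upstream of DDAH1-201 and has a shorter reading frame, with 546 against 855 coding bases. It held 12.8%, 16.4%, 19.9% and 22.2% of the gene with DMSO, 56.9%, 66.8%, 76.6% and 77.5% with etoposide, and 66.9%, 76.2% and 79.5% with tozasertib. The groups were far apart, with a gain of 53.6 points (adjusted p = 0.00026), and the gene sum rose by 1.21 (SE 0.093).

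TPM1 encodes tropomyosin 1, which lies along actin filaments. Its upstream promoter gives long forms such as TPM1-206 (284 residues) and its internal promoter short forms such as TPM1-208 (248 residues). The codons that set them apart are codons 1 to 80 of TPM1-206, in 2 exons within chr15:63042830-63044152, and codons 1 to 44 of TPM1-208 at chr15:63048576-63048707, both on the plus strand.
TPM1-206: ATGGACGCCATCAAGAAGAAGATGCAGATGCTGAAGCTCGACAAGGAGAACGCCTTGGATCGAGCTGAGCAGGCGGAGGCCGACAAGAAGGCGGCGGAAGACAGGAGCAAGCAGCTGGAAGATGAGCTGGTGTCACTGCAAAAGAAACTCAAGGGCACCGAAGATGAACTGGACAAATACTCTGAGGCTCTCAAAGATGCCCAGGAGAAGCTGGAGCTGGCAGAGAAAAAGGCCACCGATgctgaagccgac
TPM1-208: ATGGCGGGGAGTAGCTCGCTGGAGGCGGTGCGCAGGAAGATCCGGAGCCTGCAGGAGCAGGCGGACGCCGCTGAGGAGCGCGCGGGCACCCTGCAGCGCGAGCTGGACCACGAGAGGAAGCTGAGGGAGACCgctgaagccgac

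TPM1-206 held 39.3%, 37.5%, 42.4% and 39.2% with DMSO, 54.3%, 60.9%, 64.1% and 55.5% with etoposide, and 51.5%, 53.4% and 54.8% with tozasertib (adjusted p = 0.0024). TPM1-208 fell from 24.8% ± 3.6 to 9.27% ± 1.3 and 8.57% ± 1.8 (adjusted p = 0.00039). Over all 15 transcripts of the upstream start the share was 54.3% with DMSO, 79.7% with etoposide and 77.8% with tozasertib (adjusted p = 5.7e-05), and the internal start went from 40.5% to 15.7% and 16.5%. The shift in share came with a rise of the gene sum by 1.68 (SE 0.071), so lower shares of the short forms need not mean less of them. TPM1-208 was called under all 22 alternatives, and TPM1-206 under all but edgeR's splicing test on the estimated counts.

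CLCN3, an endosomal chloride-proton exchanger, is a case that a gene sum does not show. Its sum differed by −0.06 (SE 0.065, adjusted p = 0.44), with 30.1 ± 7.0, 33.4 ± 1.3 and 33.1 ± 1.4 TPM in the 3 groups. Codons 1 to 27 of CLCN3-205, at chr4:169660370-169660448, are printed because this start lost most of its use, and codons 1 to 54 of CLCN3-208, at chr4:169635929-169636088, because they replaced it; both are on the plus strand.
CLCN3-208: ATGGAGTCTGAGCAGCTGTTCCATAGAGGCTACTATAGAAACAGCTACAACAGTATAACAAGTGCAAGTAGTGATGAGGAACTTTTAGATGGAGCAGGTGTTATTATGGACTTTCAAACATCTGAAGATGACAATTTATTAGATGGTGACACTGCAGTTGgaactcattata
CLCN3-205: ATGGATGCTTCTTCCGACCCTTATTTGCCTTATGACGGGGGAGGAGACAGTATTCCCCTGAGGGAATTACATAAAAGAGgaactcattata

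CLCN3-205 held 41.8%, 35.9%, 44% and 28.1% with DMSO, 11%, 5.77%, 6.05% and 14.1% with etoposide, and 8.31%, 11.7% and 5.04% with tozasertib (adjusted p = 0.0021). CLCN3-208 rose from 42.4% ± 7.0 to 64.8% ± 6.8 and 69.7% ± 4.7 (adjusted p = 0.011). Over all transcripts of the upstream start the share went from 60.8% to 89.8% and 90.3% (adjusted p = 0.0017). The groups did not overlap for either transcript.

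Other exchanges of the first exon either kept or changed the protein. MAP3K2, a kinase of the MAPK cascade, and DCLRE1A, a nuclease for interstrand crosslinks, exchanged starts 490 and 301 bases apart with the same coding sequence. DCLRE1A-201 rose from 15.2% ± 6.9 to 43.3% ± 1.8 and 57.6% ± 2.4 (adjusted p = 0.0009). MAP3K2-202 held 78.7%, 33.7%, 10.4% and 24.9% with DMSO and was at 0 in 6 of the 7 treated samples (adjusted p = 0.014). Its control values were widely spread. FBXO5 (EMI1), an inhibitor of the anaphase-promoting complex, fell by 2.02 in sum (SE 0.076). Its transcript FBXO5-202, which lacks codons 1 to 46 of FBXO5-201, took 14% ± 2.0 with DMSO, 31.2% ± 6.9 with etoposide and 41.5% ± 12 with tozasertib (adjusted p = 0.0061). RNF24, a RING finger protein, gained the start of RNF24-203, from 4.38% to 33.1% and 26.9% (adjusted p = 0.0065).

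The usage of ADAMTS2 shifted from a short to a full-length transcript while its sum rose by 2.79 (SE 0.088). With such a rise, a lower share of the short transcript need not mean less of it. ADAMTS2 cuts the N-propeptide from procollagen. ADAMTS2-201 has 3633 coding bases, and ADAMTS2-202 ends 40035 bases earlier with 1698.

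ADAMTS2-201 held 7.32%, 10.4%, 13.8% and 15.8% with DMSO, 66.1%, 69.4%, 68.6% and 71.2% with etoposide, and 54.6%, 50.3% and 59.8% with tozasertib (adjusted p = 5e-05). ADAMTS2-202 fell from 80.9% ± 4.0 to 20.1% ± 1.3 and 33.1% ± 4.0 (adjusted p = 2.5e-05). The gene averaged 4.33 TPM with DMSO, 21.3 with etoposide and 13.4 with tozasertib. The full-length form was therefore the minor transcript in every control and the major one in every treated sample.

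ABI1 and SNX14 each gained a short internal exon. ABI1 belongs to the WAVE complex, which starts branched actin. Its sum differed by −0.17 (SE 0.049), and its 15-base exon at chr10:26771075-26771089 (minus strand) encodes codons 155 to 159. SNX14, a sorting nexin of the endoplasmic reticulum and late endosomes, gained a 27-base exon at chr6:85538838-85538864 (minus strand), with a sum that differed by −0.24 (SE 0.053). These exons are printed with 12 flanking coding bases because each is the internal sequence that sets riser and faller apart.
ABI1-206: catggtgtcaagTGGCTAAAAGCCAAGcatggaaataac
SNX14-201: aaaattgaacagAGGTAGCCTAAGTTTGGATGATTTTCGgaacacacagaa

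ABI1-206 was listed at 0 in all 4 DMSO samples, and it held 30.3%, 23.0%, 32.6% and 31.1% with etoposide and 14.3%, 18.6% and 27.6% with tozasertib (adjusted p = 4.7e-06). ABI1-205, without the exon, fell from 48.6% ± 8.9 to 20.5% ± 3.2 and 17.9% ± 4.2 (adjusted p = 0.0021). Because other ABI1 models carry the exon, its inclusion was not 0 with DMSO: it was 16.1%, 29.7%, 19.9% and 22.5%, against 56.3% to 62.7% with etoposide and 53% to 62.0% with tozasertib. SNX14-201 held 12.3%, 16.5%, 18.1% and 16.4% with DMSO, 38.7%, 45.2%, 48.2% and 51.0% with etoposide, and 37.3%, 37.4% and 37.7% with tozasertib (adjusted p = 0.00024). Inclusion of its 27-base exon was 44.4% ± 1.7, 80.4% ± 1.7 and 72.2% ± 1.1. SNX14-201 and its faller SNX14-203 also differ by 306 bases at the 3′ end.

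MYL6, the essential light chain of non-muscle myosin II, exchanged its last coding codons. Inclusion of a 45-base exon at chr12:56160626-56160670 (plus strand) replaces the 26 final coding bases, as the capitals show.
MYL6-218: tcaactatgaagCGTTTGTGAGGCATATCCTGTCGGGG
MYL6-207: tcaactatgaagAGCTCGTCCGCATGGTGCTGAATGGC

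MYL6-218, with the exon, held 52.9%, 52.9%, 50.0% and 50.3% with DMSO, 69.7%, 68.8%, 62.8% and 66.0% with etoposide, and 65.5%, 64.7% and 63.2% with tozasertib (adjusted p = 0.00068). The lowest treated sample, at 62.8%, lay above the highest control. Neither MYL6 partner was called by edgeR's splicing test on the estimated counts. RPS24, a ribosomal protein gene, was named after its values were seen. Its transcript RPS24-202 rose by 16.6 points (adjusted p = 2.7e-07), and its 22-base exon at chr10:78040204-78040225 (plus strand) was in 79.0% ± 1.4 of the TPM with DMSO, 96.9% ± 0.3 with etoposide and 96.1% ± 0.1 with tozasertib. RPS24 has processed copies in the genome, so its shares are uncertain. DNAJC6, the clathrin uncoating factor auxilin, gained DNAJC6-201 from 3.64% ± 3.1 to 23.2% ± 3.7 and 22.4% ± 7.9 (adjusted p = 0.0047) with a sum that differed by −0.12 (SE 0.080).

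**Figure D3:**
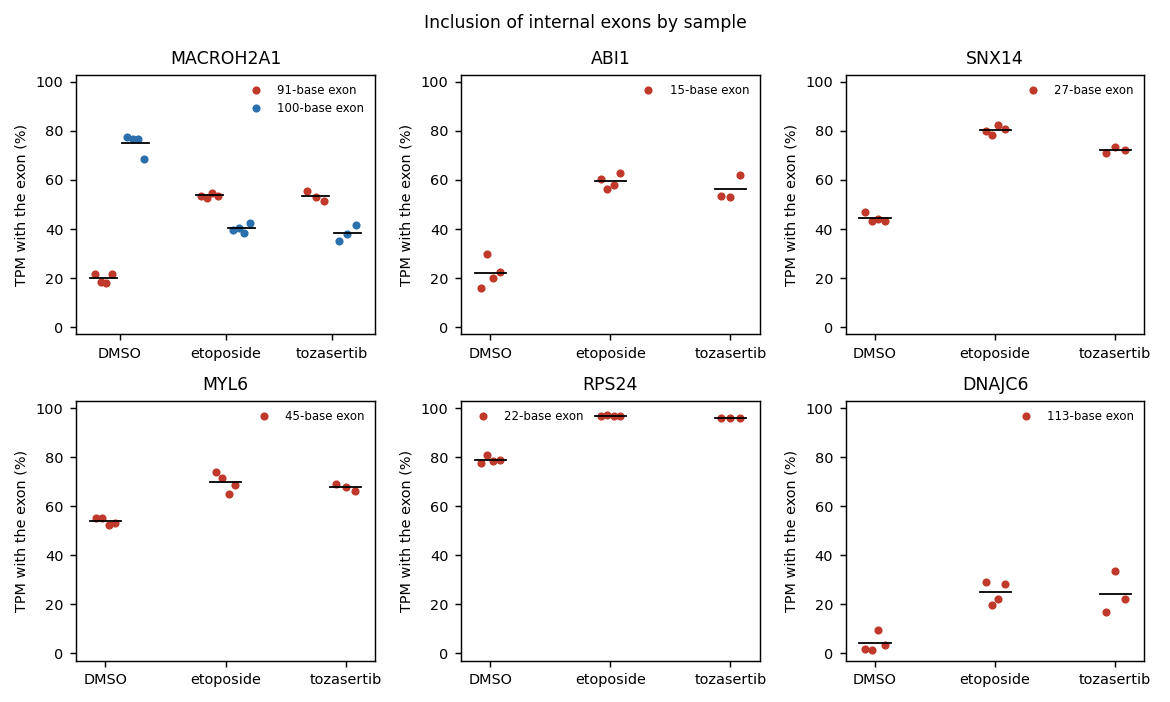
Share of the TPM that contains an internal exon (y axis, %), among the transcript models that span it, in each sample of the 3 groups (x axis). Points are samples and lines group means, with red for the exon of the riser and blue for that of the faller. The 91-base and 100-base exons of MACROH2A1 change places, from 19.9% and 74.9% with DMSO to 53.7% and 40.3% with etoposide.

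HMGB1, a chromatin protein that is also released as an alarm signal, lost total level, and its usage moved toward models with a shorter reading frame. Its sum fell by 1.53 (SE 0.064). HMGB1-204 encodes 158 residues and lacks codons 158 to 215 of HMGB1-205, which include the acidic tail. The bases of these codons lie at chr13:30461360-30461533 on the minus strand.
HMGB1-205: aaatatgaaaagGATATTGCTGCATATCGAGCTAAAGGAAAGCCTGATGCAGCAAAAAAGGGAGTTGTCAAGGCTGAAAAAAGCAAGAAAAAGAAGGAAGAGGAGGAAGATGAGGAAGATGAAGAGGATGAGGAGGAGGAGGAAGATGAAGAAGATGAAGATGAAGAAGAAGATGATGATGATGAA

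HMGB1-204 held 1.16%, 1.47%, 1.72% and 1.5% with DMSO, 14.6%, 10.5%, 9.62% and 9.94% with etoposide, and 16.2%, 13.7% and 13% with tozasertib (adjusted p = 4.7e-06). HMGB1-205 fell from 34.0% ± 4.1 to 14.9% ± 2.5 and 13.1% ± 2.2 (adjusted p = 0.00059). These transcripts also differ in their first exon. The short coding sequence was not new to treated cells, since HMGB1-201 has it too and held 35.2%, 37.6% and 35.7% (adjusted p = 0.60). Summed over both, it went from 36.7% with DMSO to 48.8% and 50% (adjusted p = 0.0082). HMGB1 has many processed copies, and how reads were divided among them is not known.

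The 15 switches with a sum within 0.3 and a call in each drug alone included pairs with full and with partial models. Beside ABI1, CLCN3, SNX14 and DNAJC6, MED7, a Mediator subunit, and EIF6, a factor of ribosome assembly, changed without a change in coding sequence. MED7-201 rose from 42.8% ± 7.8 to 68.1% ± 5.3 and 72% ± 4.0 (adjusted p = 0.0076), and ended 1018 bases further downstream than MED7-202. EIF6-201 rose from 10.5% ± 0.87 to 24.0% ± 0.56 and 18.5% ± 0.41 (adjusted p = 3.8e-05). These 6 had complete coding models on both sides.

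The other 9 had a partner with a short, incomplete or non-coding model, or 1 that is predicted to be degraded. DENND5B, a Rab exchange factor, went from 65.7% ± 3.1 to 90.0% ± 3.6 and 91.1% ± 2.7 for its full-length DENND5B-202 (adjusted p = 0.0017). ANKHD1-EIF4EBP3, a read-through gene that shares most bases with ANKHD1, moved to its longest model, from 14.6% to 32.9% and 42.8% (adjusted p = 0.0035). TMLHE, an enzyme of carnitine synthesis, rose for TMLHE-201 from 43.6% to 66.4% and 66.7% (adjusted p = 0.013), while its faller TMLHE-205 averaged 3.62 reads. The tRNA-modifying QTRT1 gained a retained-intron model, from 11.8% to 21.7% and 22.2% (adjusted p = 0.014).

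For PDGFC, ZNF579, LRRC57, AKIRIN2 and ANKRD10, the riser was a model of 395 to 561 bases. In PDGFC, a growth factor gene, the riser PDGFC-206 has 524 bases and no coding frame, and it went from 11.2% to 32.2% and 34.6% (adjusted p = 0.0023). LRRC57-206 averaged 15.3 reads and was listed at 0 in all 4 controls. Short models weigh more in TPM than in reads, so a sum in TPM differed by 0.54 for PDGFC, 0.69 for ZNF579 and 0.67 for ANKRD10 against −0.08, 0.19 and −0.01 in counts. Over all genes tested the median change of a sum was −0.07 in scaled counts and 0.14 in TPM.

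**Figure D4:**
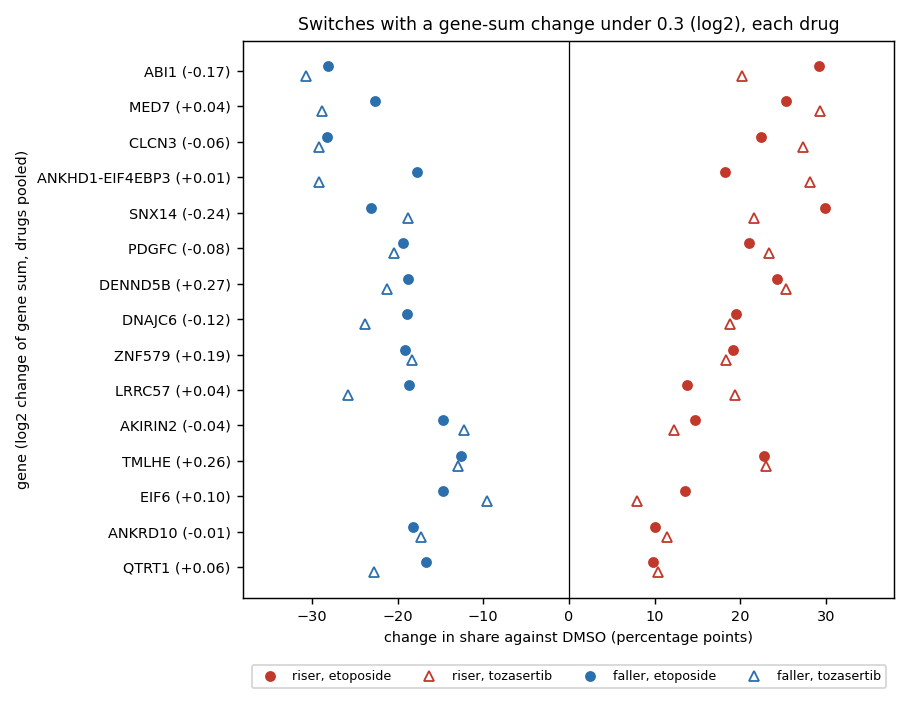
Change in share against DMSO (x axis, percentage points) of the riser (red) and faller (blue) for the 15 genes with a sum within 0.3 and a call in each drug alone. Filled circles stand for etoposide and open triangles for tozasertib, and the log2 change of the gene sum is in brackets. In every gene both drugs moved each partner to the same side, and the rises ran from 29.9 points for SNX14-201 with etoposide to 8.0 points for EIF6-201 with tozasertib.

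Across the 184 switches, the first exon was the most frequent structural difference between riser and faller. It differed in 89 (48.4%), and in 46.2% of those called in each drug alone, against 37.5% of the pairs formed by the 2 most abundant transcripts of all 8544 genes. The last exon differed in 67 (36.4% against 32.5%) and an internal exon in 49 (26.6% against 39%), with some pairs counted under several. An intron was kept in 1 partner in 14 (7.61% against 10.5%). The coding sequence was the same in 26 switches (14.1%), different in 92 (50%), absent from 1 partner in 50 (27.2%) and absent from both in 16 (8.7%). These shares are descriptive and no difference between them was tested.

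Summing transcripts before the test gave like numbers of switches at other levels. With transcripts of the same coding sequence summed, 1738 of 27769 products (6.26%) in 1063 genes were called, and 175 genes had a switch, of which 154 were among the 184. By first exon 1225 of 15656 start groups (7.82%) were called, with 175 switches (102 shared). By last exon 1557 of 21338 end groups (7.3%) were called, with 164 switches (100 shared). Start and end groups depend less on how reads are divided among near-identical transcripts.

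Transcripts annotated with a retained intron were called higher more often than lower. Of 3537 tested, 161 (4.55%) rose and 67 (1.89%) fell, beside 3.4% and 3.21% over all transcripts. Of 2554 transcripts annotated for nonsense-mediated decay, 73 (2.86%) rose and 36 (1.41%) fell. MANE Select transcripts, the single reference model of each gene, rose in 195 (2.7%) and fell in 330 (4.57%) of 7223. As a share of all TPM of multi-transcript coding genes, however, retained-intron transcripts took 5.64% ± 0.38 with DMSO, 6.19% ± 0.85 with etoposide and 6.6% ± 0.58 with tozasertib, which was not a detectable difference (exact permutation test, two-sided, p = 0.124, adjusted p = 0.124 over 5 classes). Transcripts of coding genes with no defined reading frame took 3.29% ± 0.09, 3.52% ± 0.21 and 3.84% ± 0.11 (exact p = 0.0121, adjusted p = 0.0606). Protein-coding transcripts took 87.2% ± 0.60, 86.4% ± 1.1 and 85.4% ± 0.74 (exact p = 0.0606, adjusted p = 0.101). The smallest p this design allows is 0.0030.

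Genes of the cytoskeleton, adhesion and matrix had the highest share of members with changed usage among 15 lists. Usage changed in 24 of 54 tested (44.4%), beside 14.1% of all genes, with 21 transcripts higher and 16 lower out of 184, and 3 switches (TPM1, MYL6 and COL5A1). The median of the largest share change was 10.2 points for this list and 7.24 for all genes. ACTN1, TPM2 and NUMB were named after their values were seen. ACTN1, the actin crosslinker α-actinin 1, gained ACTN1-226 from 2.36% to 9.62% and 7.85% (adjusted p = 6.9e-06). TPM2-201, of a second tropomyosin gene, fell from 30.6% to 17.1% and 17.7% (adjusted p = 0.00024). NUMB-215, of a Notch inhibitor and endocytic adaptor, was listed at 0 in every control and held 12.1% and 17.6% with the drugs (adjusted p = 0.00027). COL5A1, a fibrillar collagen whose sum rose by 3.70 (SE 0.12), gained COL5A1-202 from 21.7% ± 4.6 to 45.8% ± 0.89 and 41.6% ± 0.90 (adjusted p = 0.0022). COL5A1-202 and COL5A1-201 have coding sequences of the same length, 5514 bases. COL5A1-201 fell from 54.9% ± 5.5 to 42.3% ± 1.3 and 44.5% ± 2.3 (adjusted p = 0.039). The larger fall was that of COL5A1-207, a model of 670 bases without a reading frame that averaged 10 reads.

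FN1, fibronectin, has known splice forms of its matrix protein, and only a transcript without a reading frame was called. The share of the retained-intron FN1-225 fell from 28.6% ± 12 to 13.1% ± 2.7 and 13.1% ± 2.2 (adjusted p = 0.031), a call that 10 of 22 alternatives did not keep, among them those without DMSO replicate 1 or 2. The gene sum rose by 2.07 (log2), so this lower share need not mean less of FN1-225. Its coding transcripts FN1-213, FN1-211 and FN1-212 did not pass the test.

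Splicing factors, listed for their poison exons or retained introns, changed usage in 22 of 61 tested (36.1%). Of 260 transcripts 19 were higher and 18 lower, with 1 switch. The median of the largest share change was 6.69 points for this list, below the 7.24 for all genes. HNRNPDL, a member of the hnRNP family, carried that switch within the same coding sequence, with HNRNPDL-204 up from 7.98% ± 1.6 to 18.6% ± 7.0 and 20.9% ± 2.8 (adjusted p = 0.011). SRSF3 is an SR protein that limits itself through a poison exon. The share of its transcript for nonsense-mediated decay, SRSF3-203, rose from 5.56% ± 0.97 to 10.7% ± 1.3 and 12.7% ± 1.9 (adjusted p = 0.002). Its gene sum fell by 1.08 (SE 0.062), so a higher share need not mean more of SRSF3-203. The part of the poison exon in this fall was not tested. RBM25-212, a retained-intron transcript of another splicing regulator named after its values were seen, rose from 14.4% to 26.8% and 31.0% (adjusted p = 0.0072). TRA2B and PTBP1 had no transcript past the test. In a list of 12 CLK and SR protein kinases that also holds DYRK1A, DYRK1A alone had changed usage (8.33%). DYRK1A-212 kept its call under 15 of 22 alternatives and DYRK1A-208 under 12 of 22. CLK1-204 went from 20.3%, 20.5%, 22.1% and 16.8% to a treated range of 21.7% to 39.4% (limma, adjusted p = 0.080).

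Chromatin and nuclear envelope genes changed in 13 of 48 (27.1%), with 13 transcripts higher and 10 lower of 181. Besides MACROH2A1 and HMGB1, HMGA1 and NCAPD2 had a switch. HMGA1, an architectural protein of senescence-associated heterochromatin, fell by 3.53 in sum (SE 0.054). HMGA1-201 rose from 54.3% ± 2.4 to 67.5% ± 1.8 and 65.0% ± 0.88 (adjusted p = 0.0013) and HMGA1-205 fell from 23.4% ± 2.2 to 12.1% ± 0.84 and 13.3% ± 1.0 (adjusted p = 0.00031), with the same coding sequence. In NCAPD2, a condensin subunit, the riser NCAPD2-205 is a model of 765 bases without a reading frame. LMNA, which makes lamins A and C, had no transcript past the test, with LMNA-205 at 61.5% ± 4.1, 57.5% ± 0.56 and 57.5% ± 3.0 (adjusted p = 0.22).

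DNA replication and repair genes changed in 9 of 52 (17.3%), with 11 transcripts higher and 6 lower of 200, and UNG and MCM7 had switches. MCM7, a subunit of the replicative helicase, lost share for its coding MCM7-201, from 87.4% ± 2.9 to 68.0% ± 4.8 and 60.9% ± 1.8 (adjusted p = 0.00059). Its riser MCM7-207 is a retained-intron model of 776 bases, and the gene sum fell by 1.33 (SE 0.061). Of the remaining cell division lists, cell cycle genes changed in 7 of 21 (33.3%, with 4 transcripts higher and 4 lower) and mitosis genes in 8 of 40 (20%, with 6 higher and 3 lower), both without a switch.

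Apoptosis genes with opposing isoforms changed in 8 of 28 (28.6%), with 4 transcripts higher and 6 lower of 99. BCL2L1 encodes the survival protein BCL-XL and, by an alternative splice site, the short BCL-XS. BCL2L1-203, whose coding length of 699 bases is that of BCL-XL, rose from 5.62%, 4.99%, 7.70% and 6.80% to 14.9%, 11.8%, 15.5% and 14.1% with etoposide and 14%, 16.5% and 16.8% with tozasertib (adjusted p = 0.0011). Summed by start site, its start went from 9.17% to 15.6% and 16.8% (limma, adjusted p = 0.0043), and that of BCL2L1-207 from 12.9% to 8.06% and 5.8% (adjusted p = 0.015). The main start, that of BCL2L1-201, held 56.4%, 57.6% and 58.8% (adjusted p = 0.64). A shift between BCL-XL and BCL-XS was not tested.

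CDKN1A and CDKN2A, the arrest genes p21 and p16, were not tested because only 1 of their transcripts held 5% or more, which also applied to CD44. MITF, at 3.52 TPM on average, was below the level limit. Melanocyte and melanoma genes changed in 5 of 20 (25%), with 6 transcripts higher and 3 lower.

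Interferon response genes changed in 12 of 55 (21.8%), with 9 transcripts higher and 12 lower of 189. MX2, an antiviral GTPase, exchanged starts 8425 bases apart with the same coding sequence. MX2-201 held 12.8%, 14.2%, 6.47% and 4.43% with DMSO, 17.8%, 17%, 16.2% and 20.3% with etoposide, and 39.3%, 46.4% and 40.4% with tozasertib. In the pooled comparison its adjusted p was 0.010, with 0.14 for etoposide alone and 0.0058 for tozasertib alone, and its difference between the drugs was not past the test. Its faller MX2-216 lost the pooled call under 14 of 22 alternatives, among them 9 that leave out 1 replicate. OAS1-201, of the 2′-5′-oligoadenylate synthetase that senses double-stranded RNA, held 35.8%, 39.8%, 0% and 48.4% with DMSO and 57.6% to 67.2% with the drugs (adjusted p = 0.044), a call that 13 of its alternatives did not keep. For ADAR, which edits double-stranded RNA, no single transcript passed, but the products of ADAR-201 summed by coding sequence fell from 59.4% to 50.9% with etoposide and 31.4% with tozasertib (adjusted p = 0.0059 pooled, 0.16 and 0.0020 for each drug).

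Metabolism and lysosome genes changed in 14 of 45 (31.1%), with 8 transcripts higher and 11 lower of 151. LPIN1, a phosphatidate phosphatase, gained a 108-base coding stretch with LPIN1-220, from 6.55% ± 0.60 to 17.7% ± 2.4 and 17% ± 4.7 (adjusted p = 0.0028). PKM-202, a transcript of pyruvate kinase, fell from 80.9% ± 4.8 to 72.1% ± 1.0 and 68.8% ± 0.95 (adjusted p = 0.022), which was not called under 4 of 22 alternatives, among them those without DMSO replicate 2 or tozasertib replicate 1. LAMP2, the lysosomal membrane protein and mentioned after its values were seen, lost share for LAMP2-202 from 84.0% to 72.8% and 73.4% (adjusted p = 0.00068) while its sum rose by 1.48.

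Ferroptosis, iron and glutathione genes changed in 3 of 41 (7.32%, beside 14.1% of all genes), with 2 transcripts higher and 5 lower of 136. GPX4, the glutathione peroxidase that detoxifies lipid peroxides, was among the genes whose usage did not pass the test. GPX4-210 held 83.0%, 79.1%, 77.8% and 75.5% with DMSO, 77.5%, 72.5%, 76.7% and 71.2% with etoposide, and 75.4%, 78.4% and 76.1% with tozasertib (adjusted p = 0.26). The groups overlapped for each of its 3 tested transcripts. TXNRD1 and ACSL4 had no transcript past the test either. The 3 genes with changed usage were NQO1, VDAC2 and FADS2. In NQO1, a quinone reductase, NQO1-201 rose from 24.9% ± 1.6 to 38.9% ± 3.4 and 36.1% ± 1.3 (adjusted p = 0.0019). VDAC2-203, of a mitochondrial outer membrane channel, fell from 88.3% to 80.9% and 80.3% (adjusted p = 0.025). FADS2-202, of a fatty acid desaturase, fell from 79% to 72.9% and 74.8% (adjusted p = 0.033).

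Secreted and growth factors changed in 8 of 29 (27.6%), with 6 transcripts higher and 4 lower of 94. VEGFA-215, a retained-intron transcript of the angiogenic factor, rose from 5.4% ± 0.89 to 9.76% ± 0.88 and 9.77% ± 1.3 (adjusted p = 0.0044) while the gene sum fell by 1.68 (SE 0.12). The guidance factor SEMA3C gained SEMA3C-207, a model of 542 bases without a reading frame, from 9.82% ± 3.5 to 19.7% ± 1.6 and 20.8% ± 1.2 (adjusted p = 0.0067). Genes of 3′ end processing changed in 4 of 24 (16.7%), with 3 transcripts higher and 5 lower and no switch.

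The largest switches outside coding genes were in RNASEH1-DT and DUXAP9. RNASEH1-DT-201, of a divergent non-coding RNA, rose from 33.2% ± 1.5 to 59.0% ± 6.0 and 62.5% ± 9.8 (adjusted p = 0.0085), and its faller holds an exon that it lacks. DUXAP9, a pseudogene transcript whose sum rose by 1.48 (SE 0.095), gained DUXAP9-204 from 19.9% ± 5.7 to 49.7% ± 5.7 and 45.2% ± 4.1 (adjusted p = 0.0022). DUXAP9 has a close copy, DUXAP10, so its shares are uncertain.

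In the test of the drugs against each other, MDM2-226 and GNG2-212 were the 2 transcripts called. MDM2 encodes a ubiquitin ligase. MDM2-226, a model of 502 bases without a reading frame, held 48.9%, 29.2%, 29.7% and 10.6% with DMSO and 17.3%, 18.8%, 25.6% and 9.50% with etoposide, and it was listed at 0 in all 3 tozasertib samples (difference −17.8 points, adjusted p = 0.0046). GNG2-212, of a G protein γ subunit, held 21.4%, 17.2%, 24.2% and 31.7% with DMSO, 20.4%, 16.6%, 26.3% and 30.8% with etoposide, and was listed at 0 in all 3 tozasertib samples (difference −23.5 points, adjusted p = 0.0026). Without DMSO replicate 4 the drugs differed in 10 transcripts, and with untransformed shares in 0. For GNG2-212 the etoposide samples overlapped the controls. Both rest on estimates of exactly 0, which can be failed estimates, and the part of the estimation in them was not tested.

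**Figure D5:**
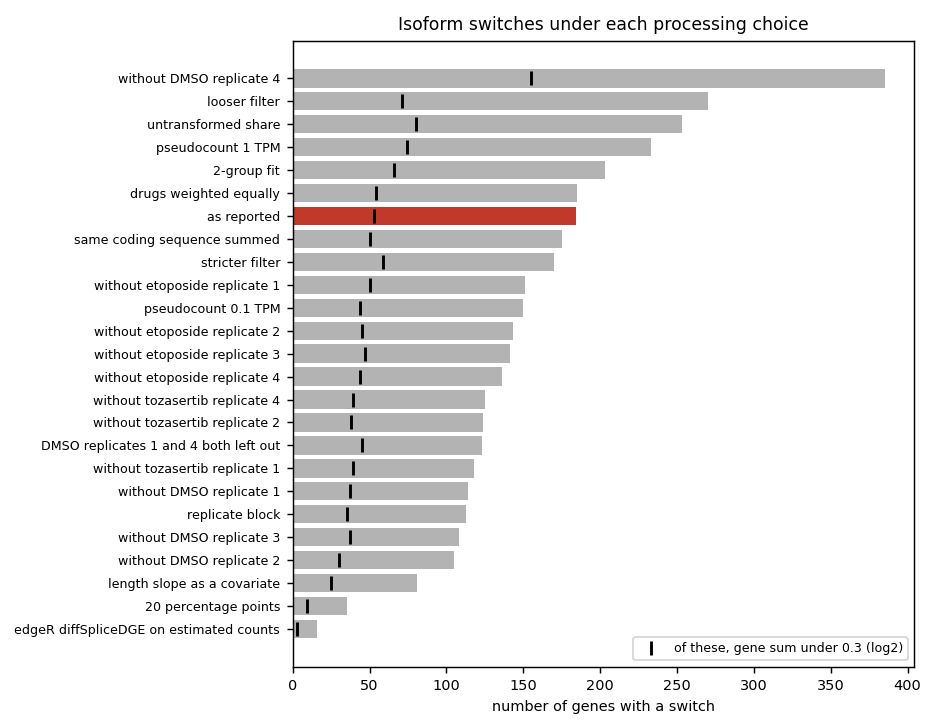
Number of genes with a switch (x axis) under each processing choice (y axis), with the reported value in red and the others in grey, and black marks for the switches with a sum within 0.3. The count runs from 16 with edgeR's test on estimated counts to 385 without DMSO replicate 4, beside the reported 184.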

How the data were processed

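RNA of SK-MEL-103 cells was measured in 4 DMSO, 4 etoposide and 3 tozasertib samples, and tozasertib replicate 3 was not analysed here. The authors deposited Salmon tables with TPM and estimated counts for each transcript. According to the submitters' processing notes, the build was GRCh38 and the tools were Salmon 1.9.0, cutadapt 4.7, DESeq2 1.40.2 and R 4.4.2. Neither Salmon's options and strand setting nor the transcript release is given in those sources, and the study's methods name STAR for alignment. Reads were 72 bases, single-end, from poly(A)-selected directional libraries, with 27882689 to 56534763 estimated reads per sample. The uncertainty of dividing shared reads is not in any error given here.

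Transcripts were matched to GENCODE 44 by identifier, and 437 of 251645 did not match. Shares were computed from the deposited TPM. log2((TPM of a transcript + 0.5)/(TPM of the other transcripts of its gene + 0.5)) was fitted with limma 3.58.1 in R 4.3.3 on 3 group means, with each of the 7 treated samples weighted alike and Benjamini-Hochberg (BH) adjustment over all 30121 transcripts. Gene p-values were Simes combinations, BH adjusted. Gene sums were deposited estimated counts, summed, rounded and tested with edgeR 4.0.16 (quasi-likelihood, TMM). Fitting used simulated data with known switches as a check. It recovered 24% of 100 simulated switches of 15 points and 74% of 100 of 30 points. Of 98 switches called there 0 were false, and of 136 genes called 11 were false. Errors in the text are SD over samples, or SE for fitted gene sums.

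Named genes were 24 set by name, the 15 largest switches with a sum within 0.3 and a call in each drug alone, the 10 largest other switches called in each drug alone, up to 4 per gene list and up to 5 that differed between the drugs. Members and lists were chosen with earlier results of these data known. Alternatives were another pseudocount, scale, filter, weighting, test, gene-sum method and limit, a replicate block, the length slope, and each replicate left out. Gene sums in TPM were added after the data were seen. Some of these genes and 1 sequence are not reported here.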

Additional observations from a re-analysis of the deposited data

Results flagged for a closer look

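Among 168 sets of shares of 4 samples, 11 held a sample far from the other 3 (6.55%), and chance alone gives about 1 in 20. In the DMSO samples, UNG-202 was 15.26% in replicate 2 against 25.9% to 27.8%, RNASEH1-DT-202 was 60.95% in replicate 2 against 60.1% to 60.2%, and DUXAP9-204 was 11.41% in replicate 1 against 21.9% to 23.9%. In etoposide replicate 1, LRRC57-204 was 48.24% against 60.5% to 63.1%, TMLHE-205 was 3.235% against 0% in the others, HMGB1-204 was 14.64% against 9.62% to 10.5%, and LPIN1-201 was 40.96% against 59.4% to 63.2%. In etoposide replicate 3, DUXAP9-209 was 16.61% against 14.6% to 14.9%. In etoposide replicate 4, DYRK1A-212 was 32.83% against 21.3% to 22.9%, NQO1-201 was 43.99% against 36.7% to 37.5%, and SEMA3C-207 was 22.04% against 18.8% to 19.1%.

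The drugs differed from each other in MDM2-226, by −17.82 points (tozasertib minus etoposide), and in GNG2-212, by −23.51 points, both tested in the limma fit over all transcripts.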

How the results depend on the processing

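For the 95 named transcripts 2069 alternatives were computed, of which 1931 kept their side of the threshold, 137 lost the call and 1 gained it. The direction of the share turned in PTBP1-203 alone, which no alternative called and whose change of 1.66 points ran from −2.09 to 3.00.

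The counts moved more. They are given for transcripts with a changed share, both drugs against DMSO, then genes with changed transcript usage, both drugs against DMSO, then isoform switches, both drugs against DMSO, then switches with a sum within 0.3, called in each drug alone, and both. The single drugs are given as transcripts with a changed share, etoposide against DMSO, or transcripts with a changed share, tozasertib against DMSO, and the drugs between them as transcripts with a changed share, tozasertib against etoposide. As reported the values were 1989, 1201, 184, 53, 52 and 15. With the replicate number as a block they were 1058, 664, 113, 35, 17 and 1, with 424 transcripts for etoposide and 193 for tozasertib. Same-numbered samples correlated by −0.0357 to 0.117, with 1 of 10 pairs over 0.1, and 7 of 11 samples correlated best with their own number. Whether the numbers pair the samples was not tested, and the reported fit treats them as unpaired. With the length slope as a covariate they were 811, 531, 81, 25, 22 and 3, with 604 for etoposide and 292 for tozasertib. With edgeR's diffSpliceDGE on estimated counts they were 407, 361, 16, 3, 4 and 1, with 200 for etoposide, 266 for tozasertib and 51 between the drugs. The looser filter gave 5724 transcripts and 2310 genes, with 3203 for etoposide, 3092 for tozasertib and 85 between the drugs. Without DMSO replicates 1 and 4 there were 1156 transcripts, 781 genes and 12 transcripts between the drugs. Untransformed shares gave 80 with a sum within 0.3, 87 called in each drug alone, 30 both and 0 between the drugs. A pseudocount of 0.1 gave 9 both and 8 between the drugs, and one of 1 gave 1216 for tozasertib. A gene-sum limit of 0.15 gave 25, and one of 0.5 gave 87 and 24 both. At 20 points there were 35 switches, 9 within 0.3, 15 in each drug alone and 5 both. The cause of these shifts was not tested.

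With 1 replicate left out, the ranges were 1021 to 3092 transcripts, 668 to 1845 genes, 105 to 385 switches, 30 to 155 within 0.3, 14 to 109 in each drug alone, 2 to 39 both, 455 to 1443 transcripts for etoposide, 209 to 1770 for tozasertib and 2 to 10 between the drugs. The differences in TPM share were 0.0915 to 0.229 points for nonsense-mediated decay, 0.00472 to 0.0108 for other transcripts, 0.319 to 0.417 for coding genes' transcripts without a reading frame, 0.548 to 0.865 for retained introns and −1.46 to −0.984 for protein-coding transcripts. Low depth limits short models, since the mean reads of transcripts in switches ran down to 0.836.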
